A study of Mus musculus with 18 samples.

Results

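Sprr1a, Sprr2f and Sprr2g, which encode small proline-rich proteins, Upk1b and Upk3a, which encode uroplakins, and Psca, which encodes a small surface antigen, were followed in mouse kidney after transplantation and after sham surgery. These 6 genes were picked by name out of 54802 genes in the deposited expression table, with their transplant and sham values already known, so their values are given as a description and carry no test. The 18 libraries formed 6 groups of 3: kidneys transplanted after cold storage and taken at day 1, day 7 or day 14, and kidneys of sham-operated mice for the same days. The labels give every library a wild-type genotype and kidney as the tissue, and the RNA was taken from the renal cortex. Other label fields, alike for all libraries, go against the titles: a tag gives a line of rat proximal tubular cells, and the treatment text speaks of STZ diabetes with ischemia and reperfusion. Strain, sex, age, donor and time in the cold were not given in the labels used here. Whether the 3 libraries of a group stem from 3 animals is not said, and the p-values therefore cover the variation among libraries, part or all of which may be technical.

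Small proline-rich proteins are building blocks of the cornified envelope, the tough layer that transglutaminases cross-link under the membrane of differentiating squamous cells such as keratinocytes. Sprr1a is also known in rodents as a gene switched on in injured neurons and stressed heart muscle. Uroplakins form the plaques that cover the umbrella cells of the urothelium, the lining of the renal pelvis, ureter and bladder, where the tetraspanin uroplakin 1b pairs with uroplakin 3a. Psca belongs to the Ly6 family of proteins held to the cell surface by a lipid anchor and is found in urothelium, prostate and stomach.

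Values are FPKM as the authors deposited them, that is, fragment counts scaled to gene length and library size. Their sums ran from 386860 to 524352 per library, and the sequencing depth is unknown. Transcripts of the mitochondrial chromosome held 14.4% to 27.7% of the sum in transplant libraries and 28.8% to 31.5% in sham libraries. Kidney genes were present in all libraries: Lrp2, the megalin gene of the proximal tubule, was above 0 in 9 of 9 transplant and 9 of 9 sham libraries, and so was Aqp2, the water channel of the collecting duct.

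The sequences upstream of the start of Sprr1a, Sprr2f and Upk3a are shown because the first of these genes was high at day 1 and the last appeared at day 14. They are from RefSeq on GRCm38.p6, the 250 bases before the annotated start, and 3 of the 6 genes were matched there. Capitals mark matches on either strand to TGANTCA, bound by AP-1 factors, to the octamer ATGCAAAT and to the TATA box letters TATAAA. Sprr1a lies on the minus strand at chr3:92485882-92486131, Sprr2f on the plus strand at chr3:92364937-92365186 and Upk3a on the plus strand at chr15:85016891-85017140. The GENCODE interval of Sprr1a reaches base 92485895, so the end of its window lies inside the gene by that annotation. Positions count from the RefSeq start.
Sprr1a: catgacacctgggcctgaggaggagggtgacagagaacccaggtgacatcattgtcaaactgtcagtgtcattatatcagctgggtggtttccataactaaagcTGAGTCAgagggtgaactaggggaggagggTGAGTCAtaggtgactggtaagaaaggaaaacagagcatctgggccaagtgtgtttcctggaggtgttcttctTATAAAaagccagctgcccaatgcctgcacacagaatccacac
Sprr2f: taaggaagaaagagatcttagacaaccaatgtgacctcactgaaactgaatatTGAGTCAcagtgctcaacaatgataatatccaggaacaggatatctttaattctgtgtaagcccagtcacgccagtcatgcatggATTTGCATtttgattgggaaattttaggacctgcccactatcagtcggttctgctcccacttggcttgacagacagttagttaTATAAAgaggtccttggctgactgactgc
Upk3a: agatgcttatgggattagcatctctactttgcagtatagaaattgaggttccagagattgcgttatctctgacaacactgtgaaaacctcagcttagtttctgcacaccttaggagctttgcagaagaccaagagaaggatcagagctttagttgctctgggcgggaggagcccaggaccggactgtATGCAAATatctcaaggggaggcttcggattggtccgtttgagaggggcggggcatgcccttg

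The Sprr1a sequence held 2 AP-1 matches, which begin at -146 and -116 from the start, and the Sprr2f sequence held 1, at -197. Among 32851 RefSeq upstream windows of the same length, 6.75% held at least 1 AP-1 match and 0.338% held 2 or more. The octamer matched once in Sprr2f, at -112 on the opposite strand, and once in Upk3a, at -63, and it matched in 1.6% of windows. TATA letters matched at -43 in Sprr1a and at -29 in Sprr2f, and in 12.4% of windows. Upk3a had neither an AP-1 nor a TATA match in this window. No 2 of these motifs overlapped in the 3 sequences, and a match is a run of letters, not a shown binding site.

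Among the small proline-rich genes, Sprr1a was the most abundant per length in the transplant group means at each of the 3 days. Sprr1a (ENSMUSG00000050359, chromosome 3, 92483952 to 92485895 in GRCm38, minus strand) measured 62.1, 129.9 and 108 FPKM in the transplant libraries of day 1, against 0.421, 0.629 and 0 FPKM in the sham libraries of day 1. At day 7 it measured 12.7, 25.2 and 25.7 FPKM in transplant against 1.32, 0 and 0.404 FPKM in sham. At day 14 it measured 37.3, 8.6 and 10.3 FPKM in transplant against 1.03, 0.446 and 2.0 FPKM in sham. The groups did not overlap at any of the 3 days, and all 9 transplant libraries lay above the highest of the 9 sham libraries.

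In the group means, Sprr1a ranked 506th at day 1 among 24413 genes above 0 in transplant, against 15193rd among 22801 in sham. The mean was 100 ± 34.6 FPKM (SD, n = 3) at day 1 in transplant, 21.2 ± 7.34 at day 7 and 18.7 ± 16.1 at day 14. The large SD of day 14 came with transplant replicate 1, and without that library the mean of the other libraries was 9.45 FPKM. As log2(FPKM + 1), a scale on which low genes appear to change less than they did, transplant exceeded sham by 6.19 on average at day 1 and by 3.84 at day 7. The difference of day 14 was 2.96, or 2.34 without transplant replicate 1.

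Sprr2f and Sprr2g, of the Sprr2 branch of the family, were listed at 0 in all 9 sham libraries. Sprr2f (ENSMUSG00000050635, chromosome 3, 92365187 to 92366442, plus strand) measured 15.9, 27.8 and 34.1 FPKM in transplant at day 1. At day 7 its transplant values were 6.30, 6.42 and 7.85 FPKM, and at day 14 they were 5.58, 0.455 and 0.546 FPKM. The gene was therefore above 0 in 9 of 9 transplant libraries, with the lowest values in replicates 2 and 3 of day 14.

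Sprr2g (ENSMUSG00000046203, chromosome 3, 92373915 to 92375229, plus strand), which GENCODE M21 types as a polymorphic pseudogene, measured 13.0, 14.8 and 30.8 FPKM in transplant at day 1. It measured 16.5, 13.0 and 19.0 FPKM in transplant at day 7 and 5.68, 0.123 and 0 FPKM at day 14. Day 1 and day 7 overlapped for Sprr2g, whereas every day 1 value of Sprr2f lay above every day 7 value. The ratio of Sprr2g to Sprr2f, both per length, was accordingly 0.818, 0.530 and 0.903 in the transplant libraries of day 1 and 2.62, 2.03 and 2.43 in those of day 7. Without transplant replicate 1, the day 14 means were 0.501 FPKM for Sprr2f and 0.0613 FPKM for Sprr2g, against 2.19 and 1.93 FPKM with it.

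Sequence shared with other genes could blur such values, since the Sprr2 family arose by repeated duplication. Of the 50-base windows in the annotated transcripts of Sprr2f, 0.714% also occurred in another gene (Sprr2e), and no 50-base window of the other 5 genes did. The paralogs Sprr2a1 and Sprr2a2 shared 96.3% and 96.5% of their windows with other genes, so reads of these paralogs cannot be assigned with confidence. No annotated gene of the table overlapped any of the 6 genes on either strand.

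**Figure D1:**
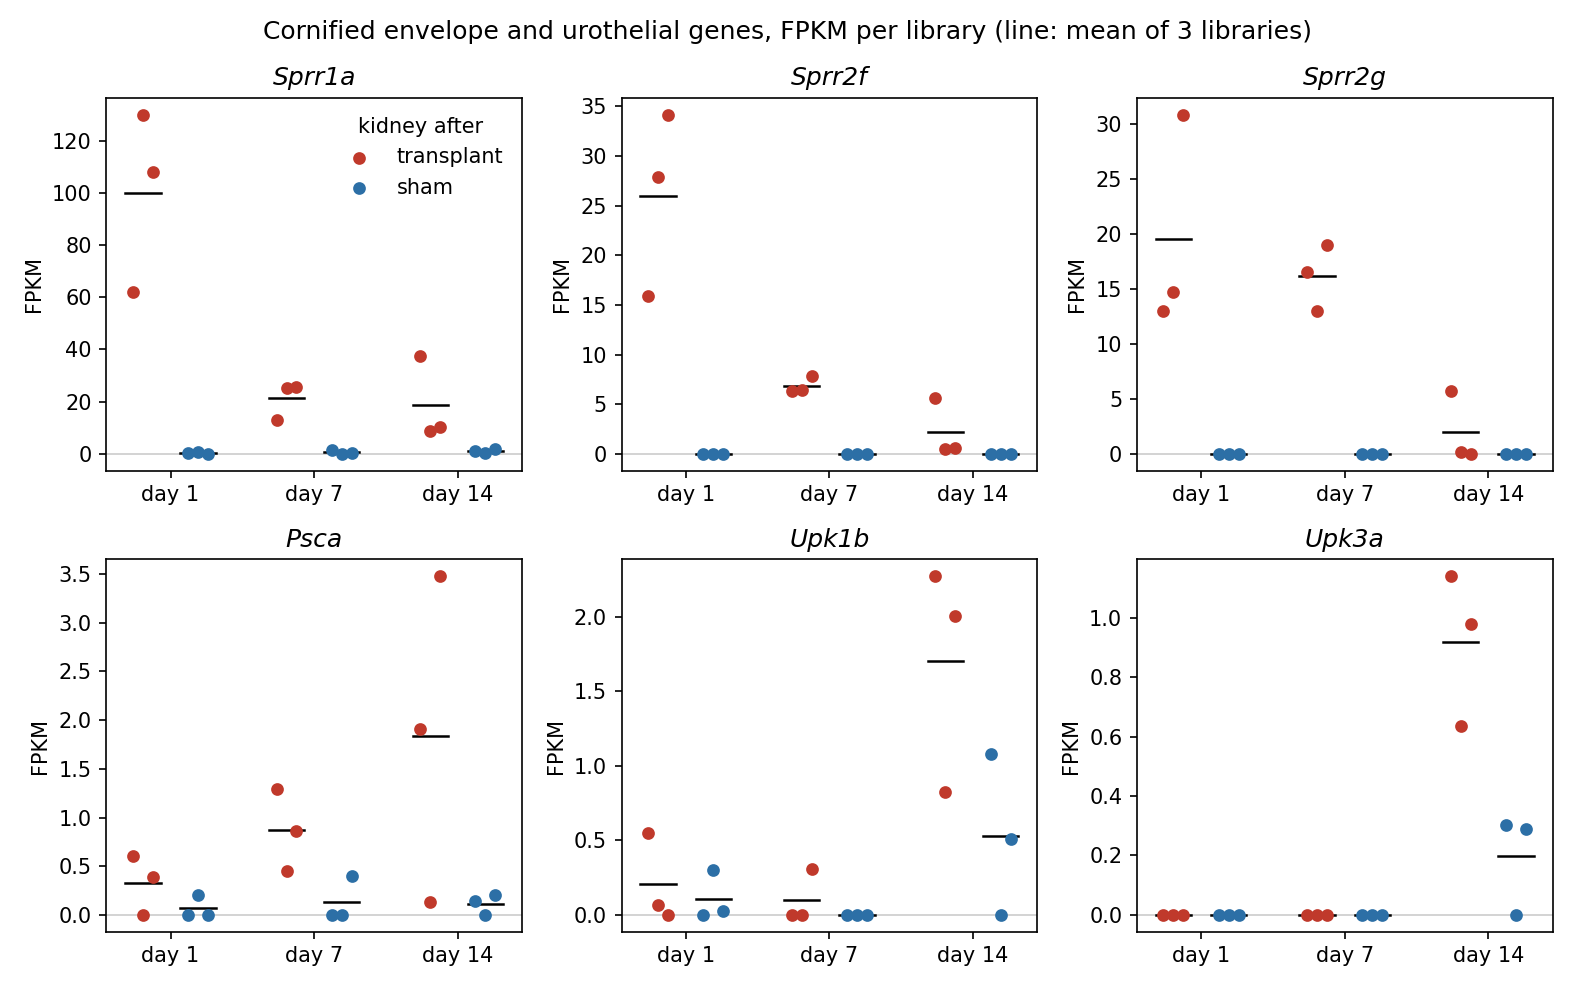
FPKM (linear axes, a separate scale per gene) in each of 18 libraries, at day 1, day 7 and day 14, with transplant libraries in red left of sham libraries in blue and a line at each mean. The 3 small proline-rich genes have their highest value at day 1, where Sprr2g overlaps with day 7. At day 14 they are highest in transplant replicate 1, while Upk1b and Upk3a are highest in transplant libraries of day 14.

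The uroplakins and Psca stayed below 4 FPKM in every library. At day 1 and day 7 their transplant means lay below those of Sprr1a, Sprr2f and Sprr2g, but at day 14 those of Psca (1.84 FPKM) and Upk1b (1.70 FPKM) were close to those of Sprr2f (2.19 FPKM) and Sprr2g (1.93 FPKM). Upk3a, which encodes the uroplakin with a long cytoplasmic tail (ENSMUSG00000022435, chromosome 15, 85017141 to 85022547, plus strand), was listed at 0 in all 12 libraries of day 1 and day 7. At day 14 it measured 1.14, 0.635 and 0.979 FPKM in transplant against 0.303, 0 and 0.289 FPKM in sham. Every transplant library of day 14 lay above every sham library, but the gene was also above 0 in sham replicates 1 and 3.

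Upk1b (ENSMUSG00000049436, chromosome 16, 38773184 to 38800328, minus strand) measured 2.27, 0.825 and 2.01 FPKM in transplant at day 14 against 1.08, 0 and 0.513 FPKM in sham. Sham replicate 1 lay above transplant replicate 2, so the groups of day 14 overlapped. At day 1 it measured 0.548, 0.0654 and 0 FPKM in transplant against 0, 0.303 and 0.0268 FPKM in sham, which also overlapped. At day 7 it was above 0 in 1 library, transplant replicate 3, at 0.305 FPKM.

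Psca (ENSMUSG00000022598, chromosome 15, 74714839 to 74717069, plus strand) measured 0.608, 0 and 0.391 FPKM in transplant at day 1 against 0, 0.205 and 0 FPKM in sham. It measured 1.29, 0.456 and 0.857 FPKM in transplant at day 7 against 0, 0 and 0.404 FPKM in sham, where the groups did not overlap. At day 14 it measured 1.91, 0.131 and 3.48 FPKM in transplant against 0.141, 0 and 0.206 FPKM in sham, and transplant replicate 2 lay among the sham libraries. The mean of the transplant libraries of day 14 was 1.84 FPKM, and it was 1.02 FPKM without replicate 3 and 2.69 FPKM without replicate 2.

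All transplant libraries lay above all sham libraries for 3 of the 6 genes at day 1 (Sprr1a, Sprr2f and Sprr2g), for 4 at day 7 (the same 3 and Psca) and for 3 at day 14 (Sprr1a, Sprr2f and Upk3a). That held for 37.9% of 15273 tested genes at day 1, 48.5% at day 7 and 31.5% at day 14, and since the 6 genes were chosen on these values nothing follows from their counts. A gene was tested where at least 3 libraries had an FPKM of at least 1. Of the 6 genes, 5 passed this filter and Upk3a did not, with 1 library at or above 1 FPKM. Psca and Upk1b passed with exactly 3 such libraries, so they lay at the limit of this filter, and the precision of such low values is unknown.

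The order of the days differed among the 6 genes. The transplant mean of Sprr2f was 3.79 times as high at day 1 as at day 7, and that of Sprr1a 4.71 times. Sprr1a averaged 21.2 FPKM in transplant at day 7 and 18.7 FPKM at day 14, an order that turned without transplant replicate 2 of day 14 (23.8 FPKM) or its replicate 3 (22.9 FPKM). Sprr2g averaged 19.5 FPKM in transplant at day 1 and 16.2 FPKM at day 7, and without replicate 3 its day 1 mean was 13.9 FPKM. Psca averaged 0.333 FPKM in transplant at day 1 against 0.0683 FPKM in sham, and 1.84 FPKM in transplant at day 14 against 0.116 FPKM in sham. Upk1b averaged 0.205 FPKM in transplant at day 1 against 0.110 FPKM in sham, and 1.70 FPKM in transplant at day 14 against 0.530 FPKM in sham, so both groups were higher at day 14. Replicate 1 carried the transplant mean of Upk1b at day 1, which was 0.0327 FPKM without it. The spread between the 3 libraries of day 14 was wide, with coefficients of variation of 85.9% for Sprr1a, 134% for Sprr2f, 168% for Sprr2g and 91.0% for Psca, against 45.3% for Upk1b and 28% for Upk3a.

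Summed over Sprr1a, Sprr2f and Sprr2g, the transplant libraries held 90.9, 172 and 173 FPKM at day 1, 35.5, 44.7 and 52.6 FPKM at day 7, and 48.5, 9.18 and 10.8 FPKM at day 14. Sham libraries held at most 2.0 FPKM. Summed over the 6 uroplakin genes of the table (Upk1a, Upk1b, Upk2, Upk3a, Upk3b and Upk3bl), the transplant libraries of day 14 held 6.02, 3.99 and 5.99 FPKM against 2.71, 0.723 and 0.801 FPKM in sham. At day 1 and day 7 no transplant library passed 1.14 FPKM, while sham libraries of those days reached 1.65 FPKM. The library with the highest uroplakin sum, transplant replicate 1 of day 14, had 6 of 6 uroplakin genes above 0, and sham replicate 1 of day 1 had none of them above 0. The first of these libraries also had the most genes above 0 of all 18, with 23081 against 18898 and 18843 in replicates 2 and 3 of its group, and the second had 18743. The part of this difference in the counts of uroplakin genes was not tested.

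**Figure D2:**
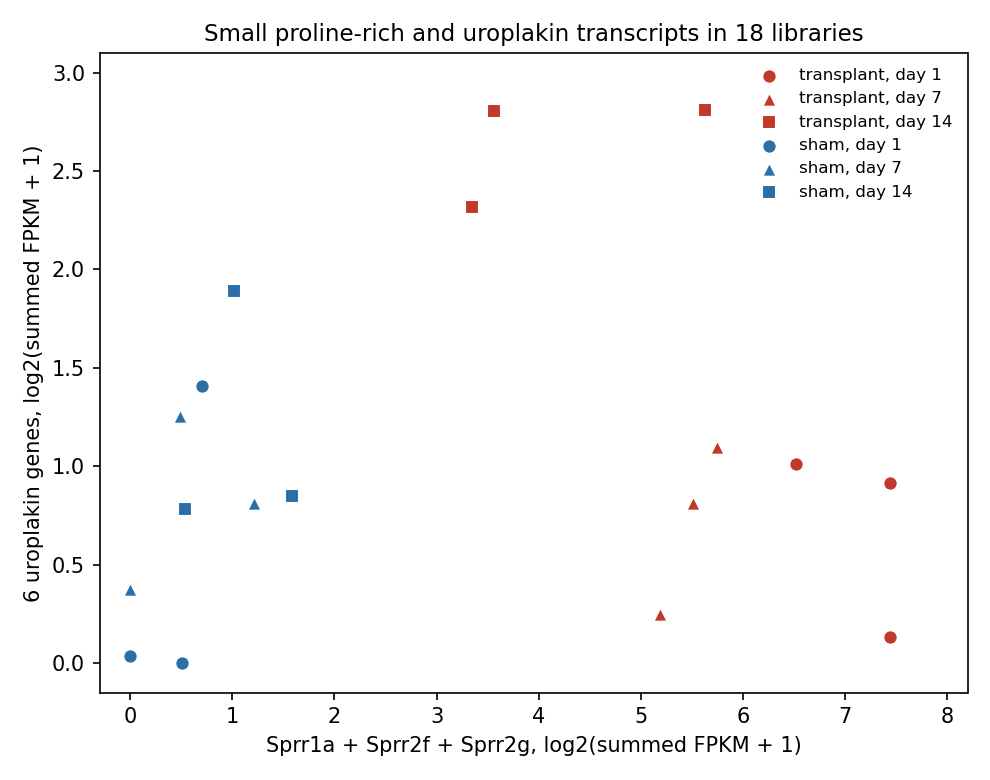
Summed FPKM of Sprr1a, Sprr2f and Sprr2g (horizontal) against summed FPKM of 6 uroplakin genes (vertical), both as log2(sum + 1), for 18 libraries, with red for transplant, blue for sham and a marker shape per day. Transplant libraries of day 1 and day 7 lie to the right at low uroplakin sums, and those of day 14 lie above all other libraries.

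Among the 12 other small proline-rich genes looked up, 4 were listed at 0 in all libraries and 1, Sprr2a2, passed the filter. Sprr2a2 measured 6.31, 0.0483 and 0.746 FPKM in transplant at day 1 against 0, 1.46 and 0.190 FPKM in sham, and 12.4, 0.948 and 2.11 FPKM in transplant at day 14 against 1.45, 0 and 3.77 FPKM in sham. Its groups overlapped at each day and it did not pass the test (limma adjusted p = 0.441 at day 1, 0.856 at day 7 and 0.350 at day 14). At day 7, where Sprr2g measured 13.0 to 19.0 FPKM in transplant, Sprr2a2 measured 0, 0.237 and 0.194 FPKM. Sprr2a2 was thus high in single libraries of both groups, and it is one of the paralogs whose reads cannot be assigned with confidence.

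Among the 4 other uroplakin genes, Upk1a, the tetraspanin that pairs with uroplakin 2, was the one that passed the filter. It measured 1.36, 1.47 and 2.43 FPKM in transplant at day 14 against 1.33, 0.723 and 0 FPKM in sham, values that just did not overlap, and did not pass the test (log2 fold change 0.77 ± 0.34, SE, limma adjusted p = 0.103). At day 1 it was listed at 0 in all 3 transplant libraries and at 0, 0.778 and 0 FPKM in sham. Upk2 was above 0 in 1 transplant library, replicate 1 of day 14 at 0.958 FPKM, and in 2 sham libraries. Upk3b, which is also a mesothelial gene, measured 0.236, 1.06 and 0.572 FPKM in transplant at day 14 and 0 FPKM in the 3 sham libraries of that day.

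**Figure D3:**
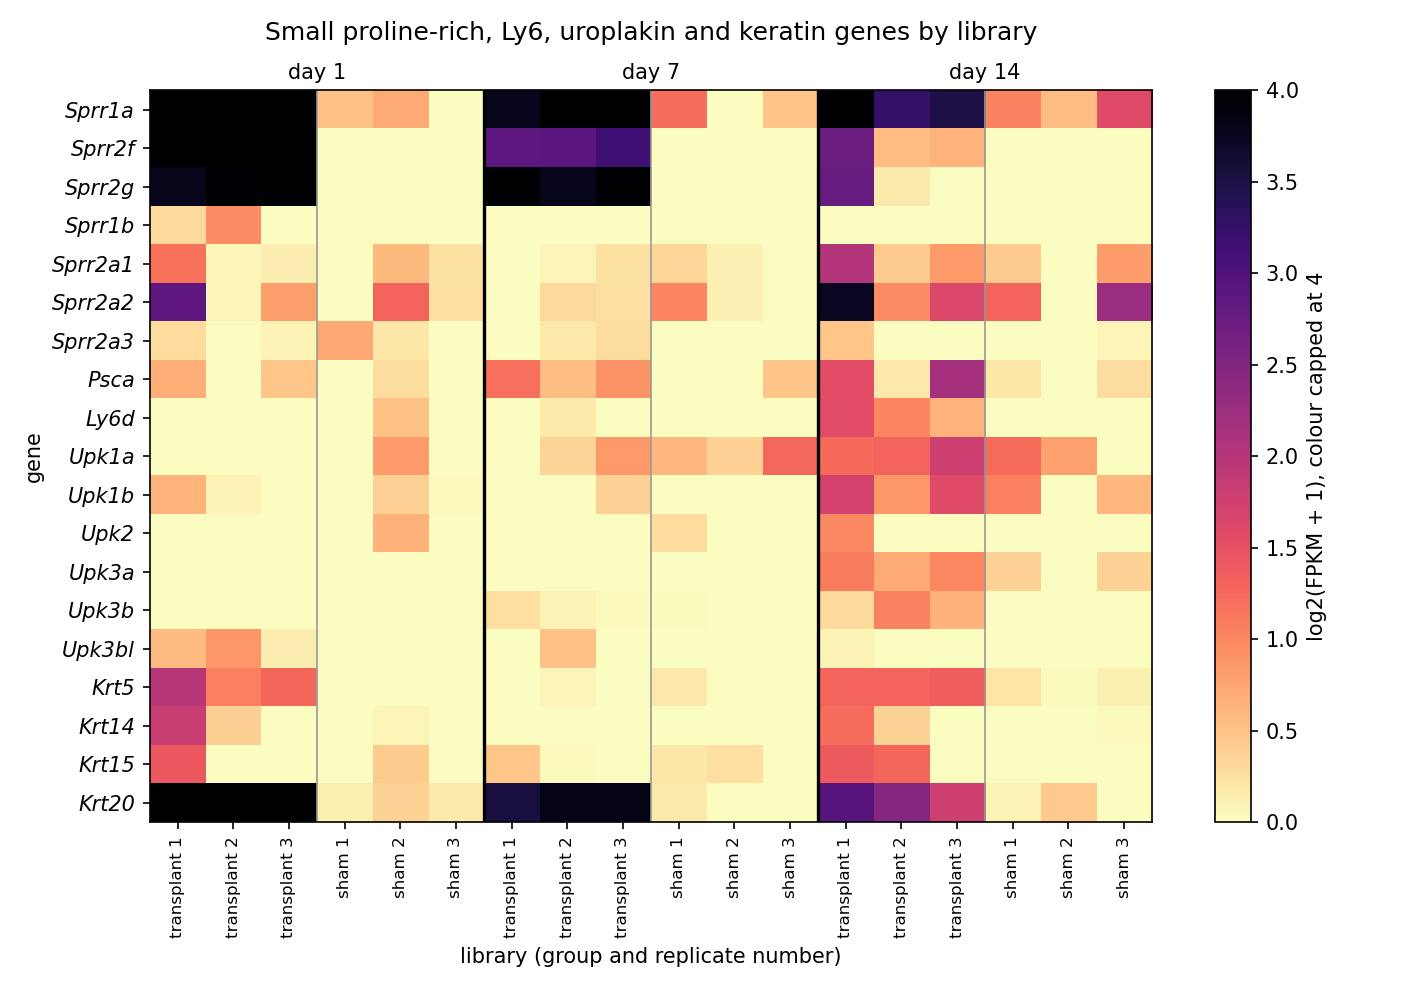
Heat map of log2(FPKM + 1), colour capped at 4, for small proline-rich, Ly6, uroplakin and keratin genes (rows) in 18 libraries (columns, by day, with transplant left of sham). Sprr1a, Sprr2f, Sprr2g and Krt20 are dark in transplant at day 1 and day 7, and Upk1b, Upk3a, Upk3b and Ly6d are darkest in transplant libraries of day 14, with weaker signal of some uroplakins in single sham libraries.

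In all, 117 genes that belong with the 6 by function were looked up, from lists chosen with earlier results of these data known. Of these, 116 were matched to the table, 35 were listed at 0 in every library and 41 passed the filter. At day 1, 24 of the 41 rose and 4 fell (limma on log2(FPKM + 1), adjusted p below 0.05), where 29.6% of all tested genes rose and 9.57% fell. At day 7, 26 rose and 2 fell, against 35.5% and 6.01% of all tested genes, and at day 14, 24 rose and 1 fell, against 22.4% and 5.12%. The median log2 fold change of the 41 genes was 0.91, 0.88 and 0.75 at day 1, day 7 and day 14, and that of all tested genes was 0.31, 0.41 and 0.27. Under median-of-ratios scaling, which balances all genes, the counts were 20 and 5 at day 1, 18 and 2 at day 7, and 16 and 3 at day 14. Among all genes, 2237, 1753 and 1723 then rose and 2373, 1959 and 1717 fell. Higher calls thus made up 48.5%, 47.2% and 50.1% of all calls, against 75.6%, 85.5% and 81.4% without this scaling. These are shares of the calls, not of the tested genes, so they are not set against the counts among the 41.

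Of the other structural proteins of the cornified envelope, 40 were looked up, 23 were listed at 0 in all libraries and 5 passed the filter. Ppl, which encodes periplakin, a plakin that links the envelope to keratin filaments, measured 5.30 ± 1.72 FPKM in transplant at day 1 against 0.513 ± 0.0723 FPKM in sham (SD, n = 3 each), and it rose by 2.02 ± 0.24 on the log2 scale (SE; limma adjusted p = 3.66e-06). It rose by 2.71 ± 0.24 at day 7 and 1.54 ± 0.24 at day 14 (limma adjusted p = 2.01e-07 and 1.66e-04). Sbsn, which encodes suprabasin, rose at day 7 and day 14, by 1.08 ± 0.39 and 1.49 ± 0.39 (limma adjusted p = 0.0335 and 0.00824), and its day 14 rise missed the threshold without transplant replicate 1 (limma adjusted p = 0.0511). Scel, which encodes sciellin, rose at day 7 by 1.02 ± 0.38 (limma adjusted p = 0.0366). Krt10, a keratin of suprabasal skin, fell at day 1 by 0.68 ± 0.25 on the log2 scale (limma adjusted p = 0.0397). The calls of Sbsn and Scel at day 7 did not hold with median-of-ratios scaling (limma adjusted p = 0.132 and 0.157), without a filter, and without any 1 of 4 libraries each. That of Krt10 at day 1 was lost without a filter (limma adjusted p = 0.0667), in the fit of that day's libraries alone (limma adjusted p = 0.0842) and without any 1 of 4 libraries.

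Some transglutaminase and desmosome genes were more abundant, Tgm2 in sham libraries as well. Of 16 transglutaminase and desmosome genes looked up, 9 passed the filter. Of these, 8 rose at day 1, 7 at day 7 and 6 at day 14, where 29.6%, 35.5% and 22.4% of all tested genes rose. Tgm3, Tgm5, Pkp1, Dsg1a, Dsg3, Dsc1 and Dsc3 did not pass the filter and measured at most 0.0982 FPKM in any library. Tgm1, another transglutaminase, rose at day 1 by 1.69 ± 0.33 (limma adjusted p = 4.84e-04). It was not called at day 7 or day 14 (limma adjusted p = 0.977 and 0.575). Tgm2, the tissue transglutaminase, measured 190.0 ± 51.2 FPKM in transplant at day 1 against 46.1 ± 3.89 FPKM in sham, and it rose by 1.99 ± 0.16 (limma adjusted p = 1.75e-08). Its rises at day 7 and day 14 were 0.72 ± 0.16 and 0.62 ± 0.16 (limma adjusted p = 0.00154 and 0.00668), and both calls went once libraries were scaled by the median of ratios (limma adjusted p = 0.259 and 0.139). Dsp, which encodes desmoplakin, measured 10.1 ± 0.725 FPKM in transplant at day 1 against 2.20 ± 0.410 FPKM in sham, and its log2 fold changes were 1.80 ± 0.19, 1.83 ± 0.19 and 1.21 ± 0.19 at the 3 days (limma adjusted p at most 1.75e-04). Dsg2, a desmosomal cadherin, rose by 1.15 ± 0.22, 2.08 ± 0.22 and 1.54 ± 0.22 (limma adjusted p at most 4.41e-04). Jup, which encodes plakoglobin, and Pkp2, which encodes plakophilin 2, rose by 1.04 ± 0.16 and 1.03 ± 0.18 at day 1 (limma adjusted p = 6.05e-05 and 1.84e-04) and by smaller amounts at day 14, where median-of-ratios scaling ended both calls (limma adjusted p = 0.554 and 0.138). The call of Jup at day 14 (limma adjusted p = 0.0458) was also lost without any 1 of 14 libraries.

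Among 13 other urothelial markers, 9 passed the filter, of which 5 rose at each of the 3 days, 2 fell at day 1 and 1 fell at day 7. Of all tested genes, 29.6%, 35.5% and 22.4% rose at the 3 days, and 9.57% and 6.01% fell at day 1 and day 7. Krt13 and Vgll1 were listed at 0 in all libraries. Krt20, the keratin of umbrella cells, which injured tubules are also known to express, measured 193, 479 and 794 FPKM in transplant at day 1 against 0.0890, 0.290 and 0.116 FPKM in sham. It measured 10.6, 13.2 and 13.1 FPKM in transplant at day 7 against 0.121, 0 and 0 FPKM in sham, and 6.65, 4.53 and 2.39 FPKM at day 14 against 0.0663, 0.358 and 0 FPKM. Its log2 fold changes were 8.50 ± 0.36, 3.67 ± 0.36 and 2.21 ± 0.36 (limma adjusted p = 1.67e-11, 6.15e-07 and 2.31e-04). Cldn4, a claudin of tight epithelia that the collecting duct also expresses, measured 102 ± 40.0 FPKM in transplant at day 1 against 3.74 ± 0.347 FPKM in sham, with log2 fold changes of 4.35 ± 0.26, 3.23 ± 0.26 and 2.26 ± 0.26 (limma adjusted p at most 7.90e-06).

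Krt5, the keratin of basal urothelial cells, was listed at 0 in the 3 sham libraries of day 1 and measured 2.92, 1.09 and 1.41 FPKM in transplant (limma adjusted p = 1.10e-04). At day 7 it measured 0, 0.0536 and 0 FPKM in transplant and did not pass the test (limma adjusted p = 0.918), and at day 14 it measured 1.43, 1.43 and 1.56 FPKM in transplant against 0.161, 0.0215 and 0.0807 FPKM in sham (limma adjusted p = 0.00130). Krt7, a keratin of urothelium and collecting duct, rose by 0.65 ± 0.19, 1.83 ± 0.19 and 1.49 ± 0.19 (limma adjusted p = 0.0110, 1.14e-06 and 2.12e-05), and the first of these calls did not hold with libraries scaled by the median of ratios (limma adjusted p = 0.246) and without transplant day 1 replicate 2 (limma adjusted p = 0.0739). Mal, a proteolipid of apical transport, rose by 1.29 ± 0.13 at day 7 and by 1.0 ± 0.13 at day 14 (limma adjusted p = 1.01e-06 and 2.78e-05). Unlike the uroplakins, Mal was abundant in sham as well, with means of 51.6 FPKM at day 7 and 54.7 FPKM at day 14. Snx31, a sorting nexin gene of umbrella cells, fell by 1.5 ± 0.36 at day 1 and 1.38 ± 0.36 at day 7 on the log2 scale (limma adjusted p = 0.00319 and 0.00606). Its transplant libraries lay below its sham libraries at each of the 3 days, with means at day 14 of 1.52 ± 0.285 FPKM in transplant and 3.54 ± 1.5 FPKM in sham, where it did not pass the test (limma adjusted p = 0.110). Aqp3, an aquaporin of urothelium and collecting duct, fell at day 1 by 0.74 ± 0.21 (limma adjusted p = 0.0101), a call lost without sham replicate 2 (limma adjusted p = 0.0654).

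Of the 12 transcription factor genes of urothelial and squamous differentiation, 7 passed the filter, and 5 of them rose and 1 fell at each day. Of all tested genes, 29.6%, 35.5% and 22.4% rose at the 3 days and 9.57%, 6.01% and 5.12% fell. Trp63, Foxa1, Pparg, Grhl1 and Grhl3 did not pass the filter. Trp63 measured at most 0.518 FPKM in any library, and its groups overlapped at each day. Gata3 was tested and not called at any day (limma adjusted p = 0.423, 0.0519 and 0.0646). Klf5, a Kruppel-like factor of epithelial growth, measured 5.65 ± 1.44 FPKM in transplant at day 1 against 0.0891 ± 0.0775 FPKM in sham, with log2 fold changes of 2.59 ± 0.25, 1.69 ± 0.25 and 0.95 ± 0.25 (limma adjusted p = 2.02e-07, 4.09e-05 and 0.00786). Its day 14 call was lost in the fit of that day's libraries alone (limma adjusted p = 0.0691). Elf3, an epithelial ETS factor, rose by 1.71 ± 0.21, 1.80 ± 0.21 and 1.55 ± 0.21 (limma adjusted p at most 3.74e-05). Ehf, a related factor, rose by 1.45 ± 0.25 at day 14 and Klf4 by 1.23 ± 0.22 (limma adjusted p = 3.68e-04 and 4.94e-04). Ovol1, a zinc finger factor of epidermal differentiation, fell at day 1 by 1.15 ± 0.21 on the log2 scale (limma adjusted p = 3.56e-04). Its lower calls at day 7 and day 14 (limma adjusted p = 0.0488 and 0.0264) were lost in the fit of that day's libraries alone (limma adjusted p = 0.0620 and 0.110). The day 7 call was also lost without a filter, with a pseudocount of 0.1, with a replicate block and with equal sums in every library (limma adjusted p = 0.0506, 0.0819, 0.0641 and 0.157). Leaving out any 1 of 13 libraries ended the day 7 call, and any 1 of 3 that of day 14.

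Of 20 genes of the Ly6 family looked up around Psca, 9 passed the filter, of which 5 rose at day 1, 6 at day 7 and 6 at day 14. Of all tested genes, 29.6%, 35.5% and 22.4% rose at these days. Plaur, which encodes the urokinase receptor, measured 34.9 ± 11.1 FPKM in transplant at day 1 against 0.590 ± 0.138 FPKM in sham, and it rose by 4.46 ± 0.42 (limma adjusted p = 2.04e-07). The log2 fold change was 3.23 ± 0.42 at day 7 and 0.75 ± 0.42 at day 14, where it did not pass (limma adjusted p = 1.44e-05 and 0.201). Without transplant replicate 2 of day 14 the last value was 1.45 (limma adjusted p = 0.00216). Ly6e, which was abundant in both groups, rose by 1.42 ± 0.17, 1.48 ± 0.17 and 0.85 ± 0.17 (limma adjusted p at most 0.00153). Ly6a, the stem cell antigen Sca-1, rose by 1.14 ± 0.14 at day 1, Ly6c1, a marker of endothelium, by 1.19 ± 0.16 at day 7, and Cd59a, which shields cells from complement, by 0.88 ± 0.19 at day 14 (limma adjusted p = 4.87e-06, 1.65e-05 and 0.00209). Gpihbp1, the capillary anchor of lipoprotein lipase, rose by 1.28 ± 0.23 at day 1 and 1.40 ± 0.23 at day 14 (limma adjusted p = 2.81e-04 and 2.65e-04). Several Ly6 genes have near-identical paralogs, and how the authors divided shared reads is unknown. Ly6d did not pass the filter and measured 1.97, 1.01 and 0.554 FPKM in transplant at day 14 and 0 FPKM in sham of that day.

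**Figure D4:**
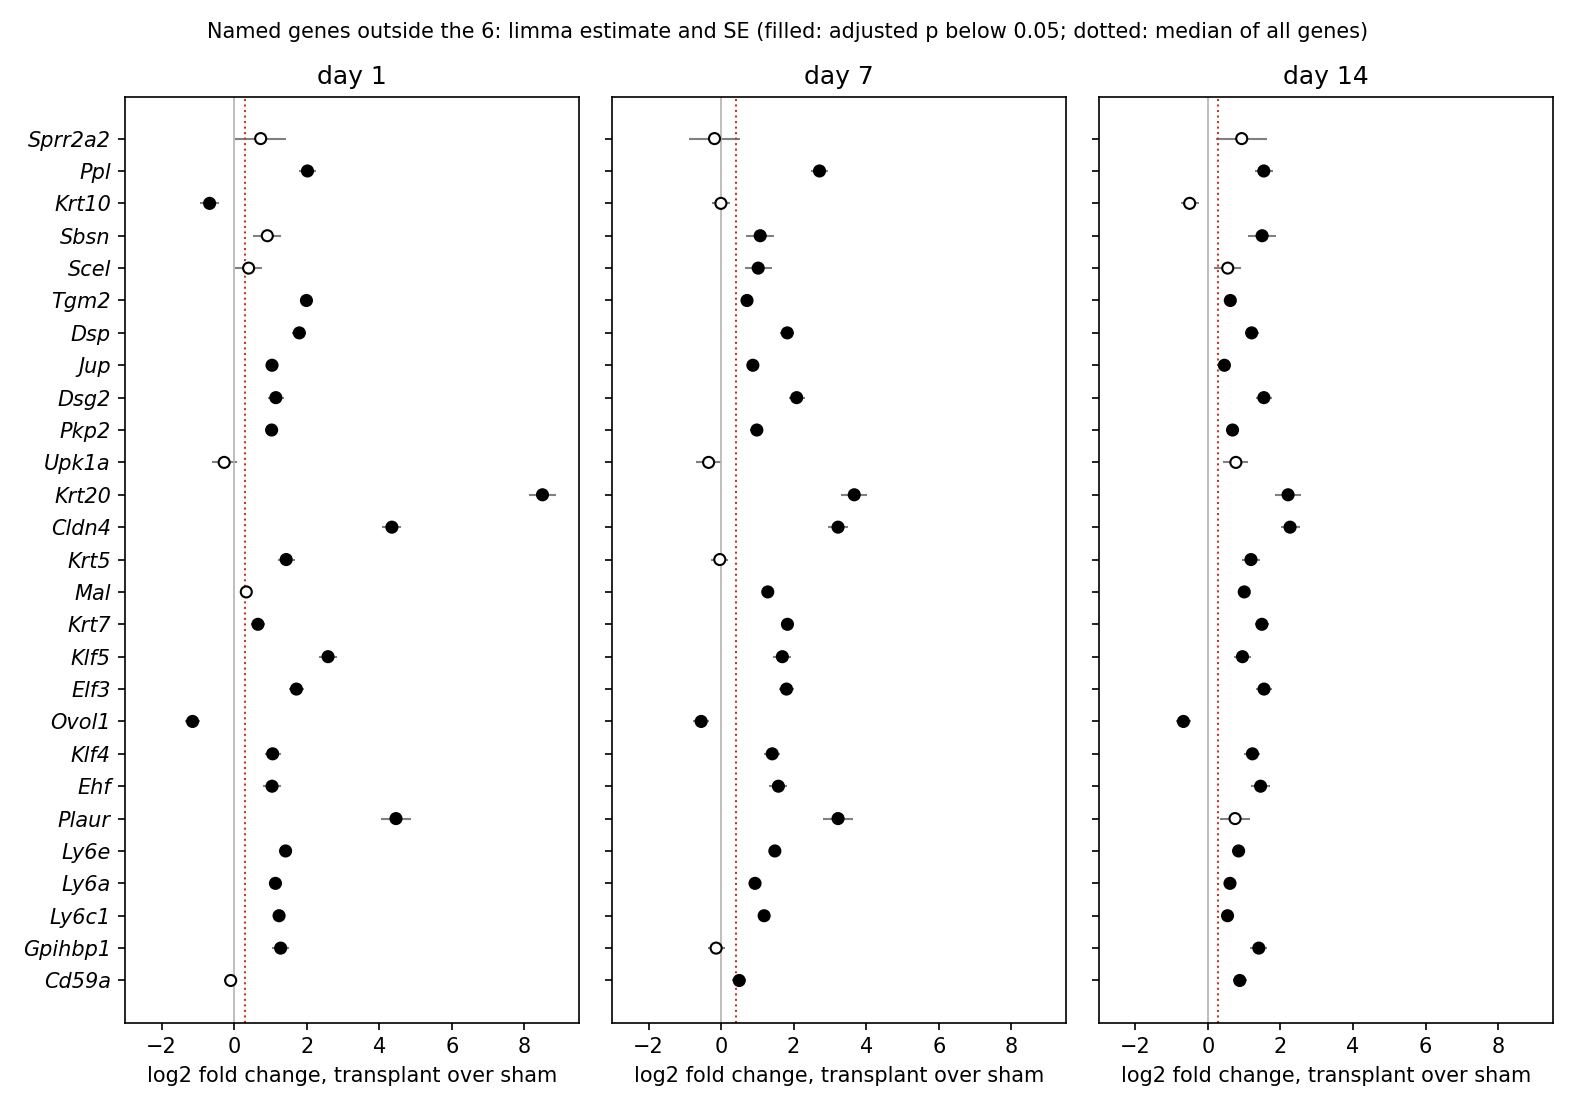
Log2 fold changes (transplant over sham, on log2(FPKM + 1)) with SE from limma for 27 named genes outside the 6, at day 1, day 7 and day 14. Filled points passed an adjusted p of 0.05, the dotted line is the median of all tested genes, and Krt20, Cldn4 and Plaur lie farthest to the right at day 1, while Krt10 and Ovol1 lie left of 0.

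Markers of other cells moved in the same libraries, where 29.6%, 35.5% and 22.4% of all tested genes rose at day 1, day 7 and day 14. The shares that fell were 9.57%, 6.01% and 5.12%. All 6 injured tubule markers rose at each of the 3 days, and their summed level was 9502 to 11363 FPKM in transplant at day 1 against 311 to 341 FPKM in sham. Most of that sum was Spp1, at 10272, 8052 and 9669 FPKM in transplant at day 1 against 308, 338 and 328 FPKM in sham. Of 7 proximal tubule markers, 7 fell at day 1, 5 at day 7 and 4 at day 14. Of 7 principal cell markers, 1 rose and 1 fell at day 1, 5 rose at day 7 and 4 rose at day 14, and their sum at day 14 was 129 to 203 FPKM in transplant against 91.4 to 104 FPKM in sham. Of 7 tested markers of thin limb and inner medulla, 4, 5 and 2 rose at the 3 days, and their sum at day 14 was 89.9 to 143 FPKM in transplant against 67.5 to 99.9 FPKM in sham. Of 5 tested smooth muscle markers, as in vessels, renal pelvis and ureter, 4 rose at day 1, 4 at day 7 and 1 at day 14, and Actg2, a visceral muscle actin, measured 1.85, 0 and 0 FPKM in transplant at day 14. Among 6 mesothelial markers, 2 were tested, and 1 of these rose at each day. Msln, not tested, measured 0.792, 0 and 0.627 FPKM in transplant at day 14 against 0, 0 and 0.347 FPKM in sham. Lrrn4 and Muc16 were each above 0 in 1 library. The skin markers summed to 1.12 to 2.75 FPKM in transplant and 1.46 to 4.08 FPKM in sham over all days, and 3 of those 7 genes, Krt2, Krt77 and Krtdap, were listed at 0 in all libraries. The part of these cells in the levels of the 6 genes was not tested. In RNA from bulk tissue, here given as renal cortex, more cells of a type and more RNA per cell cannot be told apart.

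Genes with the most similar pattern were ranked by the mean absolute difference of standardised log2(FPKM + 1) values over the 18 libraries, for which smaller means more alike. For Sprr1a they were Slc44a1, a choline transporter gene, Zc3hav1 and Actn1, which encodes an alpha-actinin, at 0.172, 0.173 and 0.177 SD units, where the median over all genes ranked was 0.787. For Sprr2f they were Ddx21, a nucleolar helicase gene, Arpc2, of the Arp2/3 complex, and Klf5, at 0.124, 0.152 and 0.154, with a median of 0.798. For Sprr2g they were Dync1i2, Gnai3 and Sema3c, at 0.181, 0.207 and 0.215. Distances were larger for the low genes: Zbp1, Wfdc17 and Rnase4 stood nearest to Psca, at 0.390, 0.439 and 0.439, with a median of 0.919.

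Sprr2a2, Ighj2 and Ccl12 stood nearest to Upk1b at 0.507, 0.566 and 0.567, with a median of 1.11, and Igtp, Rassf9 and Retnla nearest to Upk3a at 0.403, 0.452 and 0.481, with a median of 1.12. Among the 6 genes themselves, Sprr2f and Sprr2g were 0.183 apart and Upk1b and Upk3a 0.293, whereas Upk3a stood 1.12, 1.22 and 1.26 from Sprr1a, Sprr2f and Sprr2g. Over the 9 transplant libraries alone, Ddx21, Anxa3 and Cdv3 stood nearest to Sprr2f, at 0.103, 0.110 and 0.122, and Shisa4, Pphln1 and Il1rn nearest to Sprr1a, at 0.199, 0.211 and 0.216. These distances describe 18 libraries from 6 groups and share the libraries and their scaling.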

How the data were processed

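RNA of mouse kidney was measured in 18 libraries, and the 6 genes and all gene lists were chosen with earlier results of these data known. The authors deposited FPKM for each gene in each library. Build mm10 and DESeq2 are named, with no role, per the submitters' processing notes. The aligner, the counting tool and the annotation were not given in the sources used here. At best, 1 fragment's worth divided low values evenly in 12.9% to 16.4% of cases (tolerance 0.05, where evenly spread values give 10%), so no reads were recovered, and the precision that depth gives is unknown.

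The gene symbols lacked the capitals N and A, and the identifiers lacked the capital N. After repair, 54819 of 54848 identifiers matched GENCODE M21 (GRCm38, the assembly of mm10). Then 17 rows with repeated identifiers were left out, and the most abundant identifier kept a shared symbol. No 2 libraries were identical. The 15273 genes that reached an FPKM of 1 in 3 or more libraries were fitted as log2(FPKM + 1) with limma 3.58.1 in R 4.3.3, with 6 group means over 18 libraries and robust, trended moderation, and p-values were Benjamini-Hochberg adjusted within each contrast. The step was checked on simulated data.

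Named genes were the 6, the tested small proline-rich and uroplakin genes, up to 3 called genes per list and day with the smallest adjusted p, and the 3 genes nearest in pattern. Genes given beyond these were chosen after their values were seen. They include Upk2, Upk3b, Snx31, Aqp3, Ly6d, Actg2, Tgm1, Spp1, Krt13, Vgll1, Gata3, Msln, Lrrn4 and Muc16. They also include the untested transglutaminase, desmosome and transcription factor genes and those under other observations. Other settings tried were pseudocounts (0.1 or 5), filters (none, or a mean FPKM of 5), median-of-ratios scaling, a fit of each day alone, a replicate block, and leaving out each library. Equal sums in every library were added after seeing the data. Python 3.11.15 and matplotlib 3.10.9 were used.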

Additional observations from a re-analysis of the deposited data

Results flagged for a closer look

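The effect of transplantation differed between days, by the limma test of the difference itself, for 10 of the 27 named genes outside the 6, with 3 libraries per group. Of all 15273 tested genes, 11.4% differed between at least 1 pair of days: 4.37% between day 7 and day 1, 10.3% between day 14 and day 1, and 0.615% between day 14 and day 7. Most of the 27 were picked for a small adjusted p at 1 of these days, which favours a difference from another day, so their count is not set against these shares. The 6 genes were not tested in this way. Between day 7 and day 1 (day 7 minus day 1, log2 scale, ± SE), the effect on Krt20 differed by -4.83 ± 0.51, that on Krt5 by -1.47 ± 0.34, that on Gpihbp1 by -1.42 ± 0.33 and that on Tgm2 by -1.28 ± 0.22 (limma adjusted p = 2.72e-05, 0.0161, 0.0178 and 0.00200). It differed by 1.18 ± 0.27 for Krt7 and 0.96 ± 0.19 for Mal (limma adjusted p = 0.0164 and 0.00519). Between day 14 and day 1 the differences were -6.29 ± 0.51 for Krt20, -3.71 ± 0.60 for Plaur, -2.08 ± 0.37 for Cldn4, -1.64 ± 0.35 for Klf5 and -1.37 ± 0.22 for Tgm2 (limma adjusted p = 7.99e-07, 6.21e-04, 0.00140, 0.00515 and 5.65e-04). They were 0.67 ± 0.19 for Mal and 0.98 ± 0.26 for Cd59a (limma adjusted p = 0.0289 and 0.0243). Between day 14 and day 7 the effect on Gpihbp1 differed by 1.54 ± 0.33 (limma adjusted p = 0.0404), while that on Krt5 differed by 1.22 ± 0.34 and did not pass (limma adjusted p = 0.121).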

How the results depend on the processing

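Companions are the tested genes outside the 6: 41, but 20 with a mean FPKM of at least 5, 81 without a filter and 43 with equal sums, so their counts have different totals. With a mean FPKM of at least 5, 16 of 20 companions were called at day 7 (16 higher, 0 lower, 0 lower also at an unadjusted limma p under 0.05) and 16 of 20 at day 14 (0 lower, 0 unadjusted), 1 fell at day 1, and of all genes 3589 rose at day 7 and 2049 rose at day 14 (2708 called). Under median-of-ratios scaling 2237 genes rose and 2373 fell at day 1, 1753 rose and 1959 fell at day 7 (3712 called) and 1723 rose and 1717 fell at day 14, where 3 companions fell. With only the libraries of the day, 2257 genes rose at day 14, 1 companion fell at day 7 and 0 at day 14 (2 at an unadjusted limma p). With equal sums in every library, added after seeing the data, 8570 genes rose at day 7 and 1 companion fell. The lower count of day 7 was also 1 with a pseudocount of 0.1, without a filter and with the replicate block. Leaving out single libraries moved it between 1 and 2, and that of day 14 between 0 and 1. The replicate block left 25 higher and 3 lower companions at day 1, and 26 and 24 higher at day 7 and day 14. Same-numbered transplant and sham libraries of a day correlated by -0.0410 to 0.102 in their deviations. Pairs of different numbers were not set beside these, so whether equal numbers mark a shared animal or batch cannot be said. Among the 6 genes, the log2 difference of Upk1b at day 1 was -0.09 without transplant day 1 replicate 1, against 0.10 with it. That of Sprr1a at day 1 ran from 4.24 to 8.15 over the settings that kept all libraries. Depth is unknown, so values under 1 FPKM have no interval.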

Other observations

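Of 20 late cornified envelope genes, a cluster expressed in skin, 16 were listed at 0 in all libraries and 4 were above 0 in 1 or 2 transplant libraries of day 1. Lce1d measured 0.218, 0.412 and 0 FPKM in transplant at day 1 and Lce3d 0, 0.752 and 0 FPKM, and both were at 0 FPKM in sham. Lce3c measured 0, 2.17 and 0.462 FPKM in transplant at day 1 and 0 FPKM in the 3 sham libraries of that day, and Lce1g measured 0, 1.47 and 0 FPKM in transplant and 0 FPKM in sham. Ivl, which encodes involucrin, measured 0.492, 0.521 and 0.450 FPKM in transplant at day 1, 1.03, 0.200 and 0.156 FPKM at day 7, and 0.841, 0 and 0 FPKM at day 14, and it was listed at 0 in all 9 sham libraries. Gml, of the Ly6 family, measured 0.892, 1.26 and 3.90 FPKM in transplant at day 1 and 0 FPKM in the other 15 libraries. None of these genes passed the filter, and they were chosen after their values were seen.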
